A study of Mus musculus with 9 samples.

Results

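B16F10, a mouse melanoma cell line that makes melanin, was compared after targeting of Tada2b with the first of 2 guides, named Tada2bsg1 in the labels and guide 1 here. The comparison used 6 of the 9 libraries of the series: 3 of guide 1, whose genotype is given as Tada2b knockout, and 3 of GFPsg, a guide named for GFP, whose genotype is given as WT. The members were all genes of the count table, 54752 rows, of which 17383 had enough reads to be tested, and 23876 rows were 0 in all 6 libraries. All cells grew in DMEM with 10% FBS, and no other treatment, allele or time is named for either group. The nuclease, the guide sequences, the time after delivery, and whether the cells were 1 clone or a pool are not given in the sources used here. The labels also do not say whether the 3 replicates of a group were separate cultures, so the p-values cover no more than the scatter of these samples, and that scatter may be technical.

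Tada2b encodes an adaptor subunit of SAGA, a large coactivator complex that acetylates and deubiquitinates histones at promoters. It sits in the acetyltransferase module beside the enzymes Kat2a or Kat2b, Tada3 and Sgf29, while the related adaptor Tada2a belongs to a separate complex, ATAC, that shares the same enzymes. In melanoma cells the transcription factors Mitf and Sox10 drive the pigment genes, and low pigment expression with high Axl is the known pattern of a dedifferentiated state. Interferons act through STAT factors and Irf9, which bind the interferon-stimulated response element (ISRE). YAP and TAZ act through TEAD factors on genes such as Ankrd1, Ccn1 and Ccn2.

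Guide 1 libraries differed from GFPsg libraries in 50.3% of the tested genes. Most pigment genes and factors that drive them were lower, with Tyr at 91.6 against 682 CPM (CPM, read counts scaled to a common library size of 1 M). Most interferon-induced genes were higher, with Isg15 at 45.96 against 5.32 CPM. Of the actin and contractile genes tested, 34 of 43 were higher, as were 24 of 34 matrix glycoproteins. In cholesterol synthesis and uptake, 29 of 33 genes were lower. Over all tested genes, 25.2% were called higher and 25.1% lower. Collagen chains moved in both directions, with Col1a1 at 224 against 7.18 CPM. Throughout, ± after a CPM value is the SD over n = 3 libraries, and ± after a log2 change (guide 1 minus GFPsg) is its standard error.

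The promoter stretches of 6 genes are shown because each comes from a gene group described here and carries a short motif of the factor family named above. They are RefSeq sequences of the GRCm38.p6 build, given 5′ to 3′ on the gene's own strand and ending at the base before the annotated start, with matches on either strand in capitals. The first 3, from interferon-induced genes, carry the ISRE core GAAANNGAA: Isg15 (chr4:156200819-156200916, minus strand), Rsad2 (chr12:26456453-26456591, minus strand) and Ifit1 (chr19:34640760-34640888, plus strand). The next 2, from pigment cell genes, carry CATGTG, the E-box form bound by Mitf: Tyr (chr7:87493513-87493553, minus strand) and Trpm1 (chr7:64153674-64153834, plus strand). The last, Ankrd1 (chr19:36119845-36120074, minus strand), carries the TEAD motif GGAATG.
Isg15: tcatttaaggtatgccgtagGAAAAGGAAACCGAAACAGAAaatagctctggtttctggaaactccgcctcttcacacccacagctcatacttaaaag
Rsad2: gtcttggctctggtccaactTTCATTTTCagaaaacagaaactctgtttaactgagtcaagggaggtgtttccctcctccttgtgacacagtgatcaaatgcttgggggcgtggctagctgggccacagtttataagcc
Ifit1: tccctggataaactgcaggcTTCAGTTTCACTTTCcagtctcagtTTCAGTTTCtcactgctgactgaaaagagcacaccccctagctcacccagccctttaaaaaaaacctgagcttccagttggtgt
Tyr: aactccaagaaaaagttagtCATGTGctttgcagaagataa
Trpm1: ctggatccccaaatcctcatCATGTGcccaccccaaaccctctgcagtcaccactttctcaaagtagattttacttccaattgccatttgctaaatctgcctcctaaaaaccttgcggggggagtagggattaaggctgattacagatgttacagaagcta
Ankrd1: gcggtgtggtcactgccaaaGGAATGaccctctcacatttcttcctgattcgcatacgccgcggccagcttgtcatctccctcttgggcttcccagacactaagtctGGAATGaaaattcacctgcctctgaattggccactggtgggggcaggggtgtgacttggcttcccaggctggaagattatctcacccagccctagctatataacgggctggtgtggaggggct

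In these windows Isg15 held 3 overlapping matches, the first 78 bases before the start, and Ifit1 held 3. Ankrd1 held 2 TEAD motifs, and Tyr and Trpm1 held 1 E-box each. Among interferon-induced antiviral effector genes, 19 of 36 with a RefSeq promoter (250 bases before to 50 after the start) held the ISRE core, as did 9 of 10 interferon-inducible GTPase genes, against 9.76% of all promoters of that length. The E-box form stood in 9 of 26 promoters of melanin and melanosome genes, against 15.9% of all. The TEAD motif stood in 13 of 21 promoters of YAP and TEAD genes, against 16.6%. It also stood in 15 of 38 promoters of actin and contractile genes. The CArG box of serum response factor stood in 9 of 38 promoters of the actin and contractile list, against 1.81%. The AP-1 motif TGANTCA stood in 11 of 36 promoters of antiviral effector genes, against 8.97%. Over tested genes with a promoter the shares were 8.56% (ISRE core), 10.9% (E-box), 14.6% (TEAD motif), 1.63% (CArG box) and 6.42% (AP-1). Only some pairs of motif and list are given. The lists were made of genes known for interferon induction, pigment or YAP and TEAD, so high shares of the matching motifs may come from that choice. Such shares say nothing of guide 1. These are matches of letters and show no binding, and the ISRE core of neighbouring matches can overlap itself.

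Tada2b itself (ENSMUSG00000029196, chr5:36473670-36484285 in mm10, GENCODE M21) had 27.6, 24.7 and 26.3 CPM in the GFPsg libraries and 32.2, 33.1 and 32.3 CPM in the guide 1 libraries. Its RNA was thus higher in all 3 guide 1 libraries, by 0.31 ± 0.05 on the log2 scale (edgeR adjusted p = 5.0e-05). A count over the whole gene does not show whether the reading frame is cut, so it does not check the label. Of its 3791 exon bases, 411 are shared with Grpel1 on the opposite strand, which had a mean of 112 CPM in GFPsg and 115 CPM in guide 1 libraries, and the strand setting of the counting is not given.

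Library totals ran from 70555655 to 76923854 reads. On a principal component analysis of log CPM, the first component held 78.5% of the variance and separated the groups, and the second, with 6.49%, set GFPsg replicate 1 apart from GFPsg replicate 2. GFPsg replicate 2 had 1.53% of its reads on mitochondrial genes, where the other GFPsg libraries had 1.97% and 2.00% and the guide 1 libraries 1.35% to 1.44%. All 8 melanocyte markers were read in all 6 libraries, with 1457402 to 1569737 summed reads in GFPsg and 399373 to 406965 in guide 1 libraries. In bulk RNA, fewer cells of a type and less RNA per cell cannot be told apart.

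edgeR's quasi-likelihood test called 8740 of 17383 genes at a Benjamini-Hochberg adjusted p under 0.05, which is 50.3% of those tested. Of these, 4375 were higher (25.2%) and 4365 lower (25.1%) with guide 1. Of the called genes, 3447 changed by less than 1.25-fold. At the other end, 1195 genes were called and at least 2-fold higher (6.87%) and 869 called and at least 2-fold lower (5.00%). Changes of at least 8-fold were mostly rises, 272 higher against 41 lower. Among all called genes, 237 had fewer than 10 reads in every GFPsg library and 113 had fewer than 10 in every guide 1 library. Such genes pass the read filter only through the other group, which fixes their direction. They were kept in the counts given here and in those of the gene lists, so these counts partly reflect the filter. The libraries of the groups did not overlap for 9853 of the 17383 tested genes, so a lack of overlap in a single gene was common. Scaling by library size alone in place of TMM turned the share of higher genes among the calls from 50.1% to 62.8%, and it moved the median change over the tested genes by 0.07 upward, from -0.0030, on the log2 scale.

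**Figure D1:**
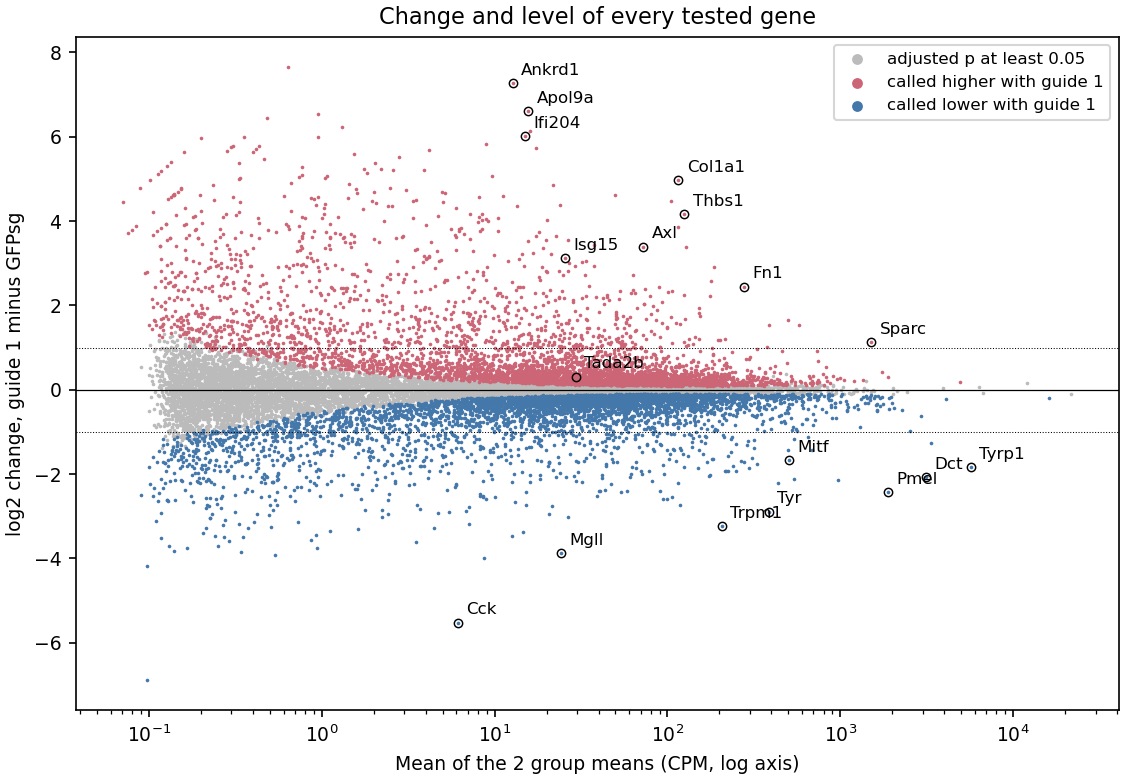
Log2 change (guide 1 minus GFPsg) against the mean of both group means in CPM (log axis) for every tested gene, with called genes in colour and dotted lines at 2-fold. Above 0 there are more changes of several log2 units than below it (272 against 41 of at least 8-fold), while the most abundant labelled genes, such as Tyrp1 and Dct, lie below 0. Both counts include genes with hardly any reads in a group, whose direction is fixed by the read filter. Genes at 0 reads in a group are drawn at their fitted value.

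The balance of rises and falls was not the same at every level. Among genes with a mean of 5 to 20 CPM over the 6 libraries, 7.36% were called and at least 2-fold higher and 3.85% at least 2-fold lower. Above 100 CPM the order was the other way: 1.61% against 3.02% from 100 to 500 CPM, and 1.08% against 3.61% of the 277 genes above 500 CPM. In that top class 42 genes were called higher and 125 lower. Protein-coding genes were called more often (60.4% of 12677) than lincRNAs (35.7% of 653) and processed pseudogenes (19.1% of 1636), whose median levels were lower: 25.1 CPM for coding genes, 0.498 CPM for lincRNAs and 1.50 CPM for processed pseudogenes. By chromosome, the median log2 change lay between -0.05 on chromosome 6 and 0.04 on chromosome 16 for the autosomes and X. Within 1 Mb of Tada2b, 22 other genes were tested, 6 called higher and 7 lower, with a median log2 change of -0.0033.

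Ankrd1, a muscle-type ankyrin repeat protein and a standard readout of YAP activity, had the largest rise among called genes of at least 5 CPM on average. It was close to undetected in GFPsg libraries (0.200, 0.133 and 0.152 CPM) and present in all guide 1 libraries (26.5, 24.96 and 24.6 CPM), a log2 change of 7.27 ± 0.12 (edgeR adjusted p = 3.2e-19). The interferon-induced apolipoprotein L genes Apol9a and Apol9b followed, at 6.60 and 6.13. Apol9a had 0.160, 0.634 and 0.180 CPM with GFPsg and 29.6, 30.9 and 32.4 CPM with guide 1. These 2 genes are near-identical copies, so reads may be split or lost between them and their separate values are uncertain. The DNA-binding p200 family members Ifi204, Ifi205 and Ifi211 rose by 6.02, 5.83 and 5.73, with the same limit, as did their relatives Mndal and Ifi203, by 4.68 and 4.43.

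The other largest rises were of several kinds. Tpm2, a tropomyosin of contractile filaments, had 0.453, 0.545 and 0.679 CPM with GFPsg and 19.1, 18.8 and 18.3 CPM with guide 1 (5.06 ± 0.11). Col1a1, the main chain of type I collagen, had 7.06, 7.13 and 7.34 CPM and 231, 219 and 222 CPM (4.96 ± 0.05, edgeR adjusted p = 2.6e-22, the lowest of all genes). In both, every guide 1 library was far above every GFPsg library. Hspb7, a small heat shock protein of muscle, rose by 4.85, the crosslinking enzyme Tgm2 by 4.67, the receptor tyrosine kinase regulator Lrig1 by 4.58 and the collagen Col8a1 by 4.47. Map3k7cl rose by 4.60 and the interferon-inducible GTPase Tgtp2 by 4.46. None of the 15 largest rises had overlapping groups, which their choice by size of change in these same libraries favours.

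Cck, the peptide hormone cholecystokinin, had the largest fall among called genes of at least 5 CPM on average, leaving out predicted genes and pseudogenes, from 11.4, 12.02 and 12.4 CPM in GFPsg libraries to 0.278, 0.214 and 0.278 CPM in guide 1 libraries (-5.53 ± 0.13, edgeR adjusted p = 3.4e-17). Mgll, the lipase that breaks down monoacylglycerols, followed with 46.1, 45.1 and 44.4 CPM and 3.25, 3.01 and 2.94 CPM (-3.88 ± 0.06). All 3 guide 1 libraries were low for both genes. Pigment cell genes came next: Oca2, a melanosomal transporter, had a log2 change of -3.46, the melanocyte channel gene Trpm1 of -3.23 and tyrosinase, Tyr, of -2.90.

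The remaining large falls were of varied kinds. The orphan receptor gene Gpr37 had a log2 change of -3.37, the nuclear receptor gene Nr4a3 -3.02 and the lipid transporter gene Abca12 -2.95. The pseudokinase gene Trib2 had -2.90, the sodium channel gene Scn1a -2.87, the phosphatase subunit gene Ppp1r16b -2.77, the copine gene Cpne4 -2.77, the metalloprotease gene Adam12 -2.73 and the protease gene Bace2 -2.72. Bace2, which cleaves Pmel in melanosomes, was the most abundant of these last 6, with 209, 206 and 199 CPM in GFPsg and 31.3, 30.2 and 31.5 CPM in guide 1 libraries. The groups did not overlap for any of the 15 largest falls, which were likewise chosen by their change in these same libraries.

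**Figure D2:**
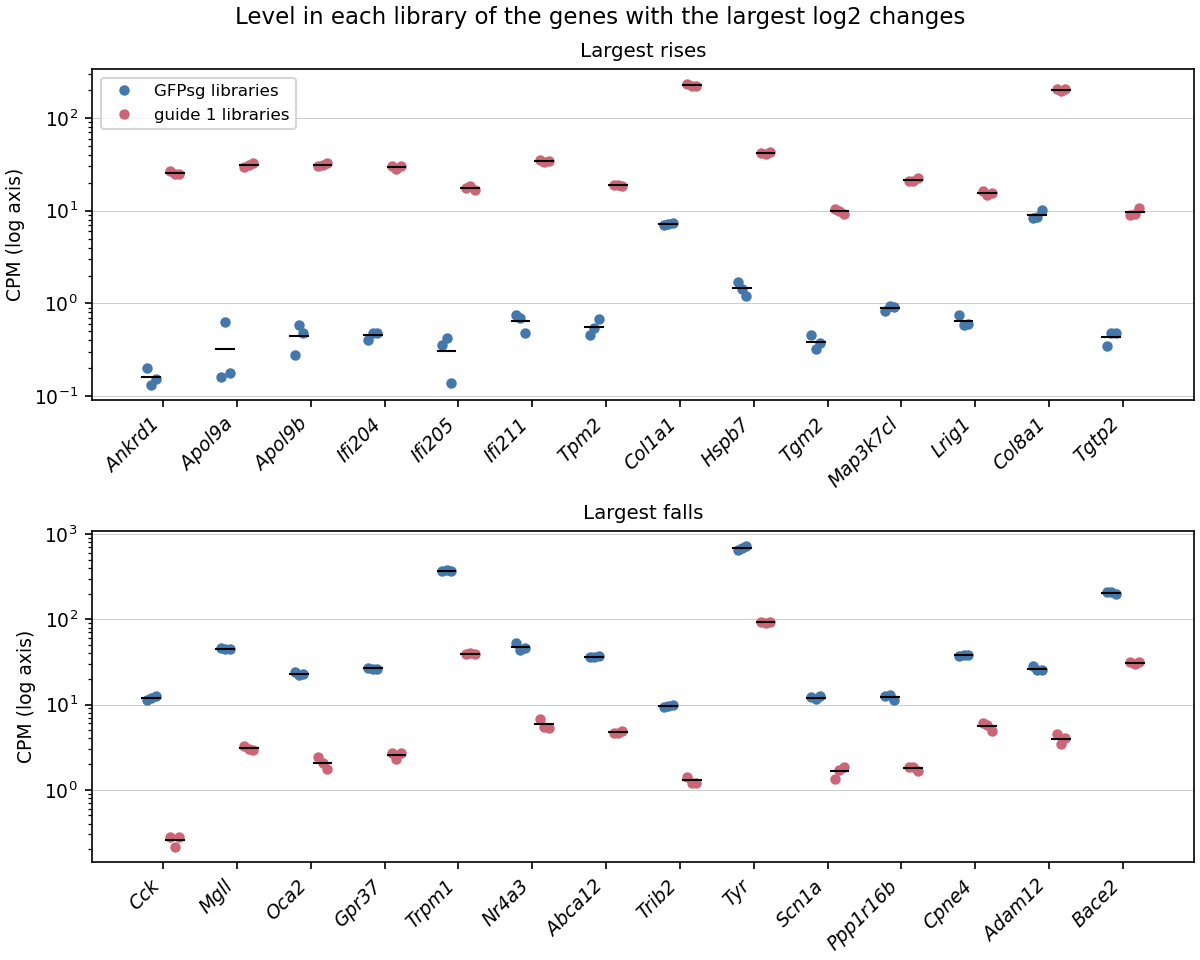
CPM in each library (points, log axis) and group mean (bar) for the largest rises (top) and largest falls (bottom) that are named here, among called genes with a mean of at least 5 CPM. In every gene shown the 3 points of a group lie together and apart from the 3 of the other group. The genes were chosen by their change in these libraries, which favours such a gap.

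Measured in CPM rather than in fold, 5 of the 8 largest losses were melanosome genes. Tyrp1, an enzyme of melanin synthesis, went from 8882 ± 96.9 to 2492 ± 79.8 CPM (log2 change -1.83 ± 0.04). Dct, the next enzyme, went from 5064 ± 211 to 1202 ± 29.4 CPM, and Pmel, which forms the fibrils on which melanin is laid down, from 3206 ± 81.2 to 593 ± 6.04 CPM. The melanosomal glycoprotein Gpnmb and Mlana, the MART-1 antigen, were the others of these 5, at 4727 to 1983 CPM and 1582 to 360.0 CPM. The rest were the peroxiredoxin Prdx1 (3381 to 1712 CPM), the mitochondrial mt-Co1 (3569 to 2331 CPM) and the elongation factor Eef1a1 (17147 to 14956 CPM), which has many processed copies in the genome. The summed level of all tested melanin and melanosome genes was 28443, 28892 and 27993 CPM in GFPsg libraries and 8225, 8493 and 8194 CPM in guide 1 libraries.

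Of the 8 largest gains in CPM, 5 were matrix or cytoskeletal genes. Sparc, a collagen-binding matrix protein, went from 950.2 ± 2.68 to 2081 ± 46.8 CPM, and the actin-binding caldesmon gene Cald1 from 242 ± 1.29 to 761 ± 9.56 CPM. Fibronectin, Fn1, had 95.97, 81.99 and 81.9 CPM with GFPsg and 469, 483 and 462 CPM with guide 1 (2.44 ± 0.05). The imprinted, retrotransposon-derived Peg10 went from 298 to 859 CPM, Anxa1 from 509.6 to 963 CPM, the intermediate filament gene Vim from 1492 to 1991 CPM, the chaperone gene Hsp90aa1 from 1688 to 2088 CPM and Actb from 4609 to 5253 CPM. Each was higher in all 3 guide 1 libraries, although Actb changed by 0.19 only.

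Counts over gene lists are set against the 25.2% of tested genes called higher and the 25.1% called lower. Protein-coding genes were called more often, with 3919 higher and 3738 lower of 12677 (60.4% called). From 20 to 100 CPM, 63.9% of genes were called. The SAGA and ATAC, histone acetylation, DNA replication and mitosis lists had shares of calls near these, so their counts are a description. Of 48 tested interferon-induced antiviral effectors, 46 rose, 42 of them at least 2-fold, 1 fell and 1 was not called, with a median log2 change of 2.37. Isg15, a ubiquitin-like modifier, had 5.19, 5.50 and 5.26 CPM with GFPsg and 44.6, 46.2 and 47.1 CPM with guide 1 (3.11 ± 0.06, edgeR adjusted p = 1.2e-18). Usp18, which removes Isg15 and restrains interferon signalling, had 2.05, 2.46 and 2.44 and 36.2, 38.2 and 38.9 CPM (4.03 ± 0.08). All guide 1 libraries were above all GFPsg libraries for both, and the same was so for Rsad2, or viperin (27.8 to 151 CPM), Ifit1, which binds foreign RNA (24.1 to 125 CPM), the interferon-induced chaperone gene Rtp4 (4.20 to 48.97 CPM) and Bst2, or tetherin (9.74 to 35.4 CPM).

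The 2 exceptions in that list were Ifit2 and Ifitm2. Ifit2, a relative of Ifit1, had 62.1, 66.1 and 64.6 CPM with GFPsg and 68.2, 68.2 and 68.5 CPM with guide 1 (0.09 ± 0.04, edgeR adjusted p = 0.074), and was called higher under library size scaling (adjusted p = 0.0018). Ifitm2, a membrane protein that blocks virus entry, had 57.96, 61.2 and 65.7 and 56.4, 55.7 and 56.4 CPM. It fell by 0.13 ± 0.05 (edgeR adjusted p = 0.020), a call lost without GFPsg replicate 3 (adjusted p = 0.099), without any 1 guide 1 library (adjusted p from 0.051 to 0.087) and under library size scaling (adjusted p = 0.29). The summed CPM of the list was 602, 638 and 629.7 in GFPsg libraries and 2170.2, 2202 and 2221 in guide 1 libraries. All 6 tested p200 family genes rose (median 5.78) and so did all 15 tested interferon-inducible GTPases (median 3.60), which attack the membranes around intracellular pathogens. Among the GTPases, Irgm1 went from 22.03 ± 1.14 to 78.5 ± 1.49 CPM, Irgm2 from 2.58 ± 0.422 to 32.3 ± 0.305 CPM and Igtp from 1.07 ± 0.116 to 17.2 ± 0.292 CPM. Gbp7, a guanylate-binding protein, went from 4.38 ± 0.0430 to 23.7 ± 0.224 CPM. Several members of these families are close copies of each other, and their separate counts are uncertain.

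Of the genes that sense foreign nucleic acid, 11 of 19 rose and 4 fell. The cytoplasmic RNA sensors led: Ddx58, or RIG-I, had 16.3, 15.7 and 17.5 CPM with GFPsg and 107, 115 and 106 CPM with guide 1 (2.73 ± 0.05), Ifih1, or MDA5, had a log2 change of 2.25 ± 0.05 and Dhx58 of 3.18 ± 0.09. The RNA editor Adar and the endosomal receptor Tlr3 rose by 1.13 and 1.01. The adaptor Mavs of the cytoplasmic RNA sensors and the adaptor Tmem173, or STING, of DNA sensing differed little. Mavs had 22.4, 20.98 and 21.9 CPM and 23.1, 22.05 and 22.2 CPM (edgeR adjusted p = 0.53), and Tmem173 had 29.2, 29.1 and 27.6 CPM and 28.8, 27.6 and 27.8 CPM (edgeR adjusted p = 0.66). Irf3, the factor they activate, had 29.8, 32.03 and 31.1 and 30.1, 27.1 and 29.5 CPM (edgeR adjusted p = 0.13), and was called lower without GFPsg replicate 1 (adjusted p = 0.041).

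Among interferon receptors, JAK-STAT and IRF genes, 17 of 28 rose and 4 fell. Irf9, the DNA-binding subunit of the interferon-activated complex, went from 6.65 ± 0.724 to 46.8 ± 1.94 CPM and Irf7, the factor that amplifies interferon production, from 0.698 ± 0.146 to 7.88 ± 0.789 CPM. Irf1 and Stat3 rose by 1.59 and 1.38. Among receptor chains, Ifngr1 rose by 0.39 and others fell: Ifnar1 had 87.4, 88.3 and 88.1 CPM with GFPsg and 68.2, 67.4 and 64.6 CPM with guide 1 (-0.40 ± 0.04), and Ifngr2 fell by 0.72 ± 0.04. In both, all guide 1 libraries were below all GFPsg libraries.

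Antigen presentation on MHC class I rose in 19 of 23 tested genes and fell in 3, with a median of 1.23. Nlrc5, the transactivator of class I genes, went from 1.49 ± 0.210 to 9.15 ± 0.732 CPM. The class I heavy chain gene H2-D1 had 34.4, 36.8 and 33.9 CPM with GFPsg and 75.2, 74.4 and 73.4 CPM with guide 1, H2-K1 had 7.82, 7.68 and 6.59 and 16.6, 16.1 and 16.4 CPM, and the light chain gene B2m 221, 222 and 224 and 374, 389 and 383 CPM. All guide 1 libraries exceeded all GFPsg libraries in these 3 genes, although class I heavy chains share sequence and their counts are uncertain. Tapbp, the tapasin that loads peptides, rose by 1.55, the peptide trimmer Erap1 by 1.23 and the proteasome activator Psme2 by 1.27. The 3 that fell were the general endoplasmic reticulum proteins Calr, Canx and Pdia3, of which Calr went from 1926 to 1356 CPM. They outweigh the rest in abundance, so the summed CPM of the list was lower with guide 1 (4386 ± 62.1) than with GFPsg (5117 ± 123).

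Of 24 tested cytokines and chemokines, 17 rose and 2 fell. The matricellular cytokine osteopontin, Spp1, had 15.4, 15.3 and 13.5 CPM with GFPsg and 211, 216 and 215 CPM with guide 1 (3.86 ± 0.05, edgeR adjusted p = 1.3e-20). Il11, of the interleukin-6 family, went from 0.910 ± 0.247 to 15.4 ± 1.11 CPM, the macrophage growth factor Csf1 from 8.65 ± 0.577 to 66.7 ± 2.59 CPM, and the T cell chemoattractants Cxcl10 and Ccl5 from 13.8 ± 0.572 to 63.2 ± 0.362 CPM and 3.36 ± 0.477 to 12.1 ± 0.488 CPM. Cx3cl1 rose by 2.90. Il6 had 3, 1 and 14 reads in the GFPsg libraries and 138, 118 and 156 in the guide 1 libraries. Il33, an alarmin, and Mif fell, with log2 changes of -1.18 ± 0.12 and -0.59 ± 0.04.

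The NF-kB pathway had 16 of 21 tested genes higher and 1 lower. There were 2 lower without GFPsg replicate 3, in the fit of all 9 libraries and with a count minimum of 50. Bcl3, a nuclear IκB protein, went from 0.270 ± 0.0309 to 4.32 ± 0.144 CPM, Nfkb1 from 41.6 ± 1.26 to 88.9 ± 1.31 CPM and Tnfaip2 from 27.4 ± 1.06 to 64.9 ± 2.25 CPM. The kinase Map3k14 and the deubiquitinase Cyld rose by 1.14 and 0.97. Of 13 immune checkpoint and NK ligand genes, 6 rose and 1 fell (2 without GFPsg replicate 1). Lgals9, or galectin-9, went from 23.04 ± 0.683 to 77.9 ± 2.71 CPM, the adhesion ligand Pvr from 36.5 ± 1.73 to 77.7 ± 3.11 CPM and the macrophage checkpoint Cd47 from 64.3 ± 2.50 to 107 ± 4.03 CPM, while Cd276 fell by 0.53 ± 0.07. The lectin gene Lgals3 rose by 0.36. Cd274, or PD-L1, had 2.72, 3.30 and 2.69 CPM with GFPsg and 3.42, 3.56 and 3.44 CPM with guide 1 (0.26 ± 0.12, edgeR adjusted p = 0.081), and passed the threshold under library size scaling (adjusted p = 0.027) and without GFPsg replicate 2 (adjusted p = 0.030).

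**Figure D3:**
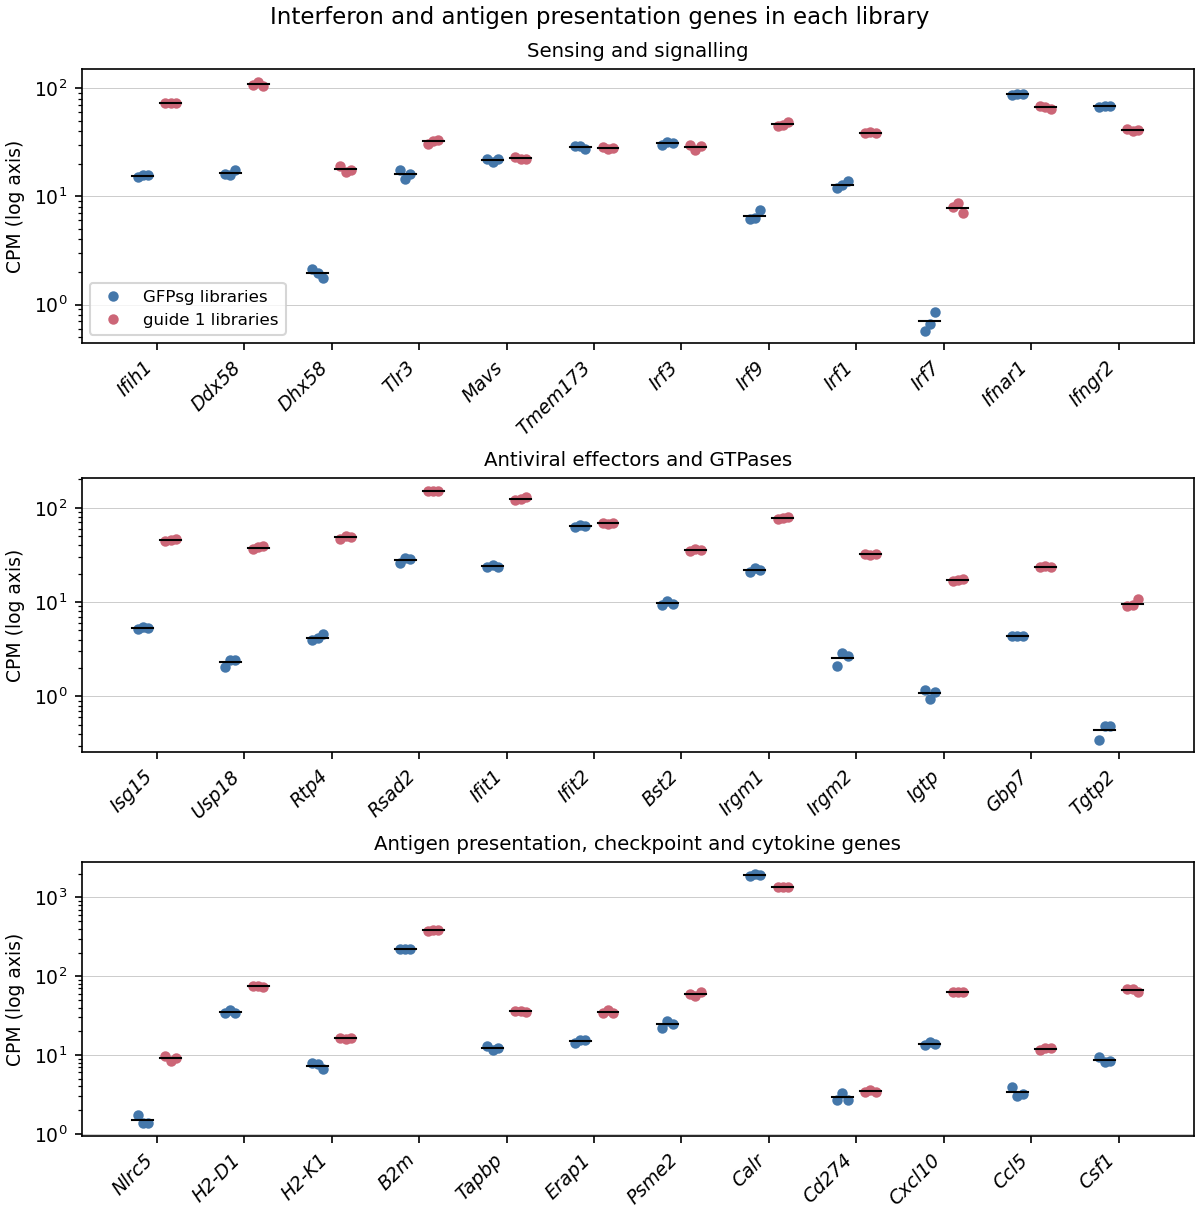
CPM in each library (points, log axis) and group mean (bar) for sensing and signalling genes (top), antiviral effectors and GTPases (middle) and antigen presentation, checkpoint and cytokine genes (bottom). Guide 1 points lie above GFPsg points for most genes, overlap them for Mavs, Tmem173 and Irf3, lie close to them for Cd274, and lie below them for Ifnar1, Ifngr2 and Calr.

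Of 32 tested melanin and melanosome genes, 28 fell, 20 of them at least 2-fold, and 2 rose, with a median log2 change of -1.44. Tyr, the first enzyme of melanin synthesis, had 640.2, 691 and 717 CPM with GFPsg and 92.1, 90.7 and 92.1 CPM with guide 1 (-2.90 ± 0.05, edgeR adjusted p = 2.1e-19). Trpm1 had 372, 378 and 367 and 39.4, 40.3 and 38.9 CPM, and Sytl2, which tethers melanosomes to the membrane, 175, 168 and 171 and 29.6, 28.2 and 26.9 CPM. All guide 1 libraries were well below all GFPsg libraries, and the pigment transporter Slc45a2 fell likewise from 717 to 153 CPM. The 2 that rose were Tpcn2 and the cystine transporter Slc7a11 (83.5 to 173 CPM), which also serves glutathione synthesis.

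The factors and receptors of the melanocyte lineage fell in 16 of 21 tested genes and rose in 2 (in 1 without GFPsg replicate 1 or 2 or guide 1 replicate 2 or 3). Mitf had 773, 765 and 778 CPM with GFPsg and 241, 249 and 239.6 CPM with guide 1 (-1.67 ± 0.04), and Sox10 had 179.8, 167 and 166 and 65.00, 66.99 and 65.6 CPM (-1.38 ± 0.04). Pax3, which acts upstream of Mitf, fell less, from 201 ± 3.90 to 164 ± 4.43 CPM. The melanocortin receptor gene Mc1r went from 98.8 ± 2.16 to 18.6 ± 0.678 CPM, the prostaglandin synthase gene Ptgds from 189 ± 1.94 to 40.8 ± 0.469 CPM and the receptor gene Kit from 20.6 ± 1.06 to 4.52 ± 0.483 CPM. Cdk2, a known Mitf target that overlaps Pmel on the opposite strand, went from 357 ± 6.29 to 93.9 ± 2.46 CPM. The exons of Cdk2 and Pmel share 34 bases, or 0.547% of those of Cdk2, and the strand setting of the counting is not given.

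Genes of the dedifferentiated melanoma state rose in 17 of 20 tested members and fell in 2. Axl, the receptor kinase that marks this state, had 13.3, 11.4 and 12.99 CPM with GFPsg and 134, 134 and 128 CPM with guide 1 (3.39 ± 0.05, edgeR adjusted p = 1.3e-19). The lysyl oxidase Loxl2 had 4.88, 5.30 and 5.32 and 30.7, 31.6 and 32.00 CPM. Both genes were higher in every guide 1 library. The 2 members that fell were Aldh1a3, a retinaldehyde dehydrogenase (13.2 to 4.33 CPM), and the hyaluronan receptor Cd44 (642 to 402 CPM). Of 11 tested transcription factors of the epithelial to mesenchymal transition, 6 rose and 3 fell. Foxc1 rose by 1.05, while Ets1 went from 724 to 381 CPM and Zeb2 from 222 to 165 CPM. Prrx1 had 0, 0 and 2 reads in GFPsg and 22, 15 and 26 reads in guide 1 libraries, so the read filter fixed its direction.

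YAP and TEAD genes rose in 20 of 28 tested members and fell in 6, or in 3 under library size scaling. Ccn1 and Ccn2, matricellular targets of YAP, had 38.5, 32.7 and 34.97 and 7.03, 6.53 and 7.30 CPM with GFPsg. With guide 1 they had 155, 152 and 143 and 58.8, 56.4 and 56.1 CPM, changes of 2.08 ± 0.05 and 3.04 ± 0.06. Crim1 rose by 1.38. The 4 TEAD factors Tead1 to Tead4 rose by 0.26, 0.35, 0.57 and 0.89. Yap1 itself had 173, 169.7 and 171 CPM with GFPsg and 159.7, 159 and 154 CPM with guide 1 (-0.12 ± 0.04, edgeR adjusted p = 0.012), a call lost without guide 1 replicate 3 (adjusted p = 0.079) and under library size scaling (adjusted p = 0.33). Wwtr1, or TAZ, changed by -0.15 ± 0.04, a call also lost under that scaling (adjusted p = 0.14).

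The actin cytoskeleton and smooth muscle contractile list had 34 of 43 tested genes higher, 20 at least 2-fold, and 3 lower, with a median of 0.92. Cald1 had 242, 241 and 243 CPM with GFPsg and 753, 758 and 771 CPM with guide 1. The calponin gene Cnn2 had 34.2, 33.6 and 33.2 and 174, 166 and 167 CPM, and the focal adhesion gene Zyx 74.1, 62.7 and 66.01 and 242, 235 and 235 CPM. No groups overlapped here. Serum response factor, Srf, went from 21.7 ± 1.42 to 34.3 ± 0.448 CPM and its cofactor Mrtfa from 15.8 ± 0.981 to 18.6 ± 0.801 CPM. One of the 3 that fell was Mylk, the kinase of the myosin light chain, at 36.2 ± 2.21 to 21.9 ± 1.79 CPM.

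Collagen chains moved in both directions, with 15 of 29 tested chains higher, 12 at least 2-fold, and 10 lower, 6 at least 2-fold. Col8a1, of type VIII collagen, had 8.36, 8.58 and 10.3 CPM with GFPsg and 204, 197 and 204 CPM with guide 1 (4.47 ± 0.06). Col12a1, which binds fibrils of type I collagen, had 7.30, 5.79 and 6.07 and 67.7, 71.7 and 67.5 CPM, and the fibril-nucleating Col5a1 23.1, 18.6 and 20.6 and 107, 98.8 and 100.1 CPM. The partner of Col1a1 in type I collagen, Col1a2, rose by 1.81 ± 0.10 from 3.11 to 10.9 CPM, against 4.96 ± 0.05 for Col1a1. Per kilobase of exon, Col1a1 stood at 34.1 and Col1a2 at 0.877 RPKM (CPM per kilobase) in guide 1 libraries, and at 1.09 and 0.250 in GFPsg libraries. The basement membrane chain Col4a5 rose by 1.24, while Col15a1, of the same zone, went from 6.61 ± 0.0923 to 1.75 ± 0.257 CPM.

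Matrix glycoproteins and proteoglycans rose in 24 of 34 tested genes and fell in 6. Thbs1, or thrombospondin-1, had 13.6, 12.2 and 13.7 CPM with GFPsg and 245, 237 and 231 CPM with guide 1 (4.17 ± 0.05, edgeR adjusted p = 7.6e-21). Ccn4 went from 43.2 ± 3.14 to 205 ± 1.77 CPM and Ltbp1, which stores latent TGF-beta, from 4.10 ± 0.404 to 38.02 ± 1.47 CPM. Against this direction, the elastic fibre gene Fbln5 had 161, 159 and 155 and 59.5, 60.6 and 57.7 CPM. Of 40 tested crosslinking and remodelling enzymes and inhibitors, 27 rose and 9 fell. The plasminogen activator Plau went from 3.40 ± 0.485 to 34.8 ± 0.730 CPM, and the metalloprotease inhibitor Timp1 and the aggrecanase Adamts4 went from 6.69 ± 0.491 to 51.4 ± 1.24 CPM and 15.4 ± 0.669 to 69.3 ± 1.81 CPM. The heparanase Hpse fell, from 22.6 ± 1.32 to 3.57 ± 0.584 CPM, as did Adam12 (26.3 ± 1.95 to 3.96 ± 0.519 CPM).

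Integrins split, with 9 of 20 higher and 6 lower. Itga3, a laminin receptor chain, had 3.52, 2.73 and 3.05 CPM with GFPsg and 37.3, 36.3 and 35.8 CPM with guide 1 (3.55 ± 0.08). The fibronectin receptor chain Itga5 and Itgb5 rose by 1.29 and 1.46, and the common chain Itgb1 went from 575 ± 15.01 to 919 ± 6.45 CPM. Itga4, which pairs with Itgb1 to bind Vcam1, went the other way, from 105 ± 5.20 to 37.6 ± 1.45 CPM, and Itga9 fell by 1.55 ± 0.08. Cadherins and junction genes were also split (9 of 23 higher, 7 lower). N-cadherin, Cdh2, went from 121 ± 8.48 to 239 ± 2.92 CPM and the desmosomal Pkp2 from 9.17 ± 0.267 to 41.1 ± 0.968 CPM. The glial and melanocytic Cdh19 went from 170.4 ± 11.9 to 53.05 ± 2.20 CPM, the connexin Gjb2 from 63.6 ± 3.24 to 23.2 ± 0.949 CPM, beta-catenin, Ctnnb1, from 891 ± 18.5 to 502 ± 6.42 CPM and E-cadherin, Cdh1, from 0.767 ± 0.0198 to 0.165 ± 0.0896 CPM.

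**Figure D4:**
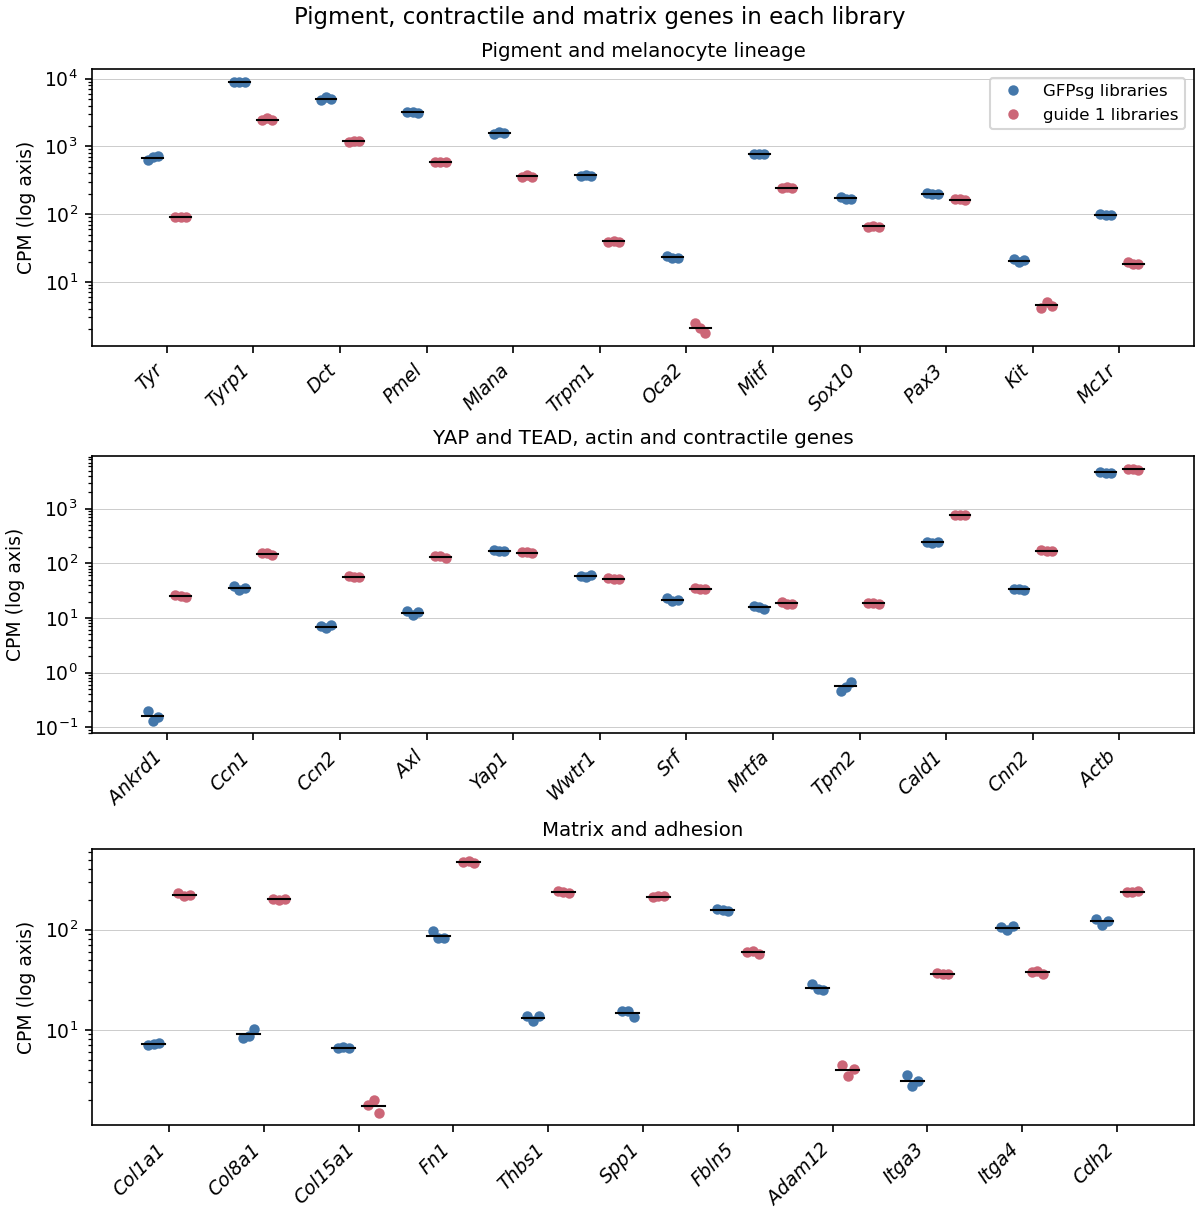
CPM in each library (points, log axis) and group mean (bar) for pigment and lineage genes (top), YAP, TEAD, actin and contractile genes (middle) and matrix and adhesion genes (bottom). All guide 1 points lie below the GFPsg points in the top row, and the widest gap in the middle row is that of Ankrd1, while Yap1, Wwtr1, Mrtfa and Actb lie within a narrow range.

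Of 31 tested receptor tyrosine kinases, 10 rose and 14 fell, with a median of -0.06. That median turned to 0.01 under library size scaling, to 0.11 without GFPsg replicate 1 and to 0.03 without guide 1 replicate 3. Epha2 had 3.20, 2.09 and 2.20 CPM with GFPsg and 35.6, 32.4 and 33.3 CPM with guide 1 (3.75 ± 0.10). The neuregulin receptor Erbb3 went from 52.8 ± 3.52 to 19.9 ± 0.925 CPM and the hepatocyte growth factor receptor Met from 689.9 ± 26.3 to 375 ± 5.87 CPM. Ntrk3 had 14, 13 and 15 reads in GFPsg libraries and 0 in all 3 guide 1 libraries. It was 15.2-fold lower with the guide 1 group set to a floor of 3 reads, a value that leaves out the scatter of the GFPsg reads. Ntrk3 passed the read filter only through GFPsg, which fixed its direction, and was chosen after its values were seen. Growth factor ligands rose in 14 of 27 tested genes and fell in 4. The neurotrophin Bdnf went from 4.93 ± 0.297 to 31.4 ± 1.72 CPM, the EGF family member Hbegf from 3.47 ± 0.400 to 14.7 ± 0.665 CPM, Pdgfa from 9.92 ± 0.983 to 27.3 ± 0.990 CPM, Pdgfb from 0.224 ± 0.0356 to 4.62 ± 0.211 CPM and the Ret ligand Artn from 0.634 ± 0.0901 to 6.48 ± 0.525 CPM.

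Genes that read out ERK signalling were evenly split, 11 higher and 11 lower of 26, with a median of -0.03 that turned to 0.04 under library size scaling. The feedback phosphatase gene Dusp4 went from 123 ± 6.34 to 44.8 ± 1.39 CPM, Phlda1 from 58.9 ± 4.03 to 24.9 ± 0.959 CPM and Myc from 74.5 ± 3.16 to 40.2 ± 1.35 CPM, while another phosphatase gene, Dusp5, went from 0.581 ± 0.0395 to 4.87 ± 0.0954 CPM. AP-1 and early response genes had 14 of 28 higher and 6 lower. Fosl2 went from 14.1 ± 1.77 to 53.9 ± 2.00 CPM, Junb from 7.09 ± 0.135 to 15.3 ± 0.984 CPM, Egr1 from 2.98 ± 0.475 to 8.44 ± 0.820 CPM, Jun from 27.8 ± 2.29 to 38.9 ± 0.303 CPM and Fos from 2.08 ± 0.133 to 3.51 ± 0.108 CPM. The orphan receptor Nr4a3 moved against them, with 52.8, 43.9 and 46.3 CPM in GFPsg and 6.80, 5.51 and 5.30 CPM in guide 1 libraries, and Nr4a1 fell by 1.12 ± 0.08.

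The TGF-beta and BMP list had 15 of 34 higher and 13 lower, and the Wnt list 11 of 30 higher and 13 lower, with medians of -0.02 and 0.03. The former turned to 0.06 under library size scaling and to 0.0005 without GFPsg replicate 3. The latter turned to -0.07 without GFPsg replicate 2 and to -0.02 without guide 1 replicate 1. Id2, a BMP target, had 277, 278 and 288 CPM with GFPsg and 68.2, 69.3 and 67.4 CPM with guide 1 (-2.04 ± 0.04). The decoy receptor Bambi and the signal transducer Smad5 had log2 changes of -1.34 ± 0.06 and -0.61 ± 0.04, while Smad3 and the procollagen protease Bmp1 rose by 1.03 and 1.63. In the Wnt list the target gene Axin2 went from 14.8 ± 1.53 to 4.34 ± 0.234 CPM, Fzd2 from 5.54 ± 0.329 to 16.8 ± 0.799 CPM and Fzd6 from 36.2 ± 0.334 to 61.04 ± 0.101 CPM. Wnt11, a ligand of the noncanonical pathway, had 5, 7 and 9 reads in GFPsg and 277, 291 and 253 reads in guide 1 libraries. The read filter fixed its direction.

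Of 39 axon guidance genes, 17 rose and 13 fell. The secreted class 3 members Sema3c, Sema3e and Sema3f rose by 1.64 ± 0.05, 2.43 ± 0.07 and 3.09 ± 0.13. The transmembrane class 6 members Sema6d and Sema6a fell, from 67.2 ± 5.49 to 12.7 ± 0.975 CPM and from 44.9 ± 2.04 to 14.02 ± 0.724 CPM. S100 and annexin genes rose in 11 of 17 and fell in 4. S100a6 had 22.1, 22.8 and 22.2 CPM with GFPsg and 234, 224 and 241 CPM with guide 1 (3.38 ± 0.04), and Anxa2 and its partner S100a10 rose by 1.54 and 1.09. S100a11 rose by 1.67. S100b, the pathologist's melanoma marker, went from 56.5 ± 0.115 to 18.7 ± 1.37 CPM.

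Cholesterol synthesis and uptake fell in 29 of 33 tested genes and rose in 2, with a median of -0.85. Insig1, the sterol-regulated retention protein, had 456, 476 and 459 CPM with GFPsg and 149, 153 and 149 CPM with guide 1 (-1.62 ± 0.04, edgeR adjusted p = 3.4e-17). The synthesis enzymes Msmo1, Nsdhl, Cyp51 and Hmgcs1 had changes of -1.31, -1.29, -1.20 and -1.13. All 4 were lower in every guide 1 library. In fatty acid and lipid droplet metabolism 28 of 44 fell and 8 rose. Scd2, a desaturase, went from 1696 ± 63.1 to 912 ± 20.6 CPM, Acly, which makes cytosolic acetyl-CoA, from 481 ± 19.2 to 243 ± 3.02 CPM, Fasn from 588 ± 53.1 to 353 ± 8.12 CPM and Elovl6 from 119.9 ± 3.56 to 58.96 ± 1.20 CPM. The fatty acid binding protein gene Fabp7 went from 14.7 ± 1.32 to 2.50 ± 0.352 CPM.

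Endoplasmic reticulum chaperones and unfolded protein response genes fell in 25 of 28 and rose in 2, mostly by less than 2-fold, with a median of -0.42. Hspa5, or BiP, went from 1899 ± 75.4 to 1352 ± 42.6 CPM, Sdf2l1 from 90.6 ± 3.51 to 43.9 ± 0.666 CPM, the kinase Eif2ak3 from 26.4 ± 0.215 to 13.4 ± 0.668 CPM and Herpud1 from 87.9 ± 0.182 to 48.9 ± 0.439 CPM. The chaperones Pdia4 and Dnajc3 had log2 changes of -0.78 ± 0.04 and -0.72 ± 0.04. Of 33 ATF4 and amino acid genes, 17 fell and 5 rose. Ddit3, or CHOP, went from 22.6 ± 0.855 to 8.80 ± 0.810 CPM and Atf4 from 407 ± 10.6 to 314 ± 6.48 CPM, and the stress-induced Sesn2 changed by -0.55, while Slc7a11 and Nupr1 rose by 1.05 and 1.06.

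Lysosomal genes fell in 20 of 34 and rose in 7, or 17 and 8 under library size scaling. The protease Ctsd went from 445 ± 4.52 to 265 ± 2.79 CPM, the lipase Lipa from 143 ± 2.21 to 86.4 ± 1.64 CPM, and Naglu and Atp6v1b2 had changes of -0.72 and -0.62. In glycolysis 15 of 27 fell and 8 rose. Aldoa went from 1096 ± 31.02 to 685 ± 4.36 CPM, Ldhb from 105 ± 4.66 to 56.9 ± 2.20 CPM and Aldoc from 23.6 ± 1.19 to 10.2 ± 0.233 CPM, against rises of 2.29 for the muscle enolase gene Eno3 and 1.09 for Eno2. NRF2 targets and iron genes were split (19 of 37 higher, 10 lower, or 22 and 7 under library size scaling). Nqo1, a quinone reductase, had 19.9, 20.6 and 20.6 CPM with GFPsg and 108, 103 and 105 CPM with guide 1 (2.37 ± 0.04). Srxn1 and Gpx1, which handle peroxides, and the iron exporter Slc40a1 rose by 1.56, 1.18 and 1.78, whereas the glutathione transferase gene Gsta1, a close copy of other Gsta genes, went from 68.2 ± 2.46 to 12.8 ± 0.980 CPM.

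All 15 listed mitochondrial genome transcripts were called lower (14 with the DESeq2 Wald test), with a median of -0.47. Over the whole mitochondrial genome, 19 genes were tested and 16 called. Of its 4 tested tRNA genes, 1 was called, as lower. mt-Co1 had 3951, 2829.6 and 3927 CPM with GFPsg and 2322, 2277 and 2394 CPM with guide 1, and mt-Nd1 1583, 1181 and 1608 and 1058, 1039 and 1104 CPM. In both, GFPsg replicate 2 lay nearest to the guide 1 libraries. The mt-Co3, mt-Atp6 and mt-Nd3 changes were -0.49, -0.47 and -0.31. With each library left out in turn, 13 to 15 of the 15 were called lower, and 13 without GFPsg replicate 1.

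DNA replication and mitosis genes moved little in fold, unlike the cell cycle kinase gene Cdk2, given above with the melanocyte lineage (log2 change -1.93). Of 46 DNA replication genes 9 rose and 16 fell, none by 2-fold, with a median of -0.05 that turned to 0.02, with 14 higher and 9 lower, under library size scaling. Pcna went from 372 ± 17.5 to 299.5 ± 2.68 CPM and Tk1 from 200.3 ± 6.14 to 160.2 ± 1.60 CPM, while the cyclins Ccne1 and Ccne2 rose by 0.44 and 0.47 and the origin factor Orc6 by 0.31. Of 39 mitosis genes 17 rose and 8 fell, or 22 and 5 under library size scaling, and none of the TMM-scaled changes reached 2-fold. Cdc20 went from 73.2 ± 3.26 to 100.4 ± 3.72 CPM, Kif20a from 77.9 ± 3.18 to 106 ± 1.06 CPM and Aurka from 107 ± 2.08 to 138 ± 2.26 CPM, against Aurkb (112 ± 3.61 to 86.5 ± 2.83 CPM), the phosphatase Cdc25b (45.8 ± 1.46 to 30.5 ± 0.901 CPM) and the proliferation marker Mki67 (422 ± 26.3 to 368 ± 4.62 CPM).

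Of 32 cyclin, CDK inhibitor and p53 target genes, 17 fell and 8 rose, or 12 and 10 under library size scaling. Trp53inp1, a p53-induced nuclear protein, had 337, 329 and 338 CPM with GFPsg and 114, 111 and 112 CPM with guide 1 (-1.58 ± 0.04). Zmat3 and Ccng1, both p53 targets, had changes of -1.03 ± 0.05 and -0.66 ± 0.04, and the CDK inhibitor Cdkn1a went from 157 ± 6.07 to 116 ± 7.92 CPM. Plk2 and Btg2, which p53 also induces, went up, by 1.72 ± 0.04 and 0.87 ± 0.06. Cell death genes rose in 19 of 36 and fell in 8. The BH3-only genes Bcl2l11, or BIM, and Bid went from 7.80 ± 0.628 to 15.3 ± 1.08 CPM and 16.5 ± 0.0862 to 26.7 ± 0.804 CPM, Tnfrsf1a from 41.8 ± 1.73 to 60.5 ± 2.96 CPM, Casp12 from 1.39 ± 0.0350 to 7.60 ± 1.09 CPM and the inflammasome adaptor Pycard from 8.27 ± 0.365 to 3.77 ± 0.183 CPM.

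Of 32 subunits of SAGA and ATAC, Tada2b included, 14 were called higher and 4 lower. Under library size scaling 18 were higher and 2 lower, and without GFPsg replicate 1 there were 7 lower. Of the 32, 1 changed at least 2-fold. That one was Taf9b, which had 20.2, 18.6 and 17.8 CPM with GFPsg and 44.4, 45.9 and 43.8 CPM with guide 1 (1.24 ± 0.05). Within the acetyltransferase module, Tada3 went from 21.7 ± 0.578 to 29.8 ± 1.21 CPM and Kat2a from 93.4 ± 2.58 to 101 ± 1.19 CPM (0.11 ± 0.04), the latter a call lost in the fit of all 9 libraries (adjusted p = 0.080) and without GFPsg replicate 2 or 3 or guide 1 replicate 1 or 2 (adjusted p from 0.075 to 0.10). The core subunit Supt20 rose by 0.51, the deubiquitinase anchor Atxn7 by 0.45 and Taf5l by 0.32. The ATAC adaptor Tada2a went from 32.4 ± 0.134 to 28.3 ± 0.867 CPM (-0.19 ± 0.05, edgeR adjusted p = 0.0022), with an adjusted p of 0.051 under library size scaling. Among 44 histone acetylation genes 13 rose and 14 fell, or 16 and 8 under library size scaling. Without GFPsg replicate 3, 8 rose, and without guide 1 replicate 2, 9 rose and 9 fell. Changes of at least 2-fold were those of Hdac7 (4.80 ± 0.654 to 16.2 ± 0.497 CPM) and Hdac11 (5.76 ± 0.734 to 2.42 ± 0.116 CPM). Hdac5 and Ing5 rose by 0.51 and 0.48, and Ing1 fell by 0.46 ± 0.05.

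**Figure D5:**
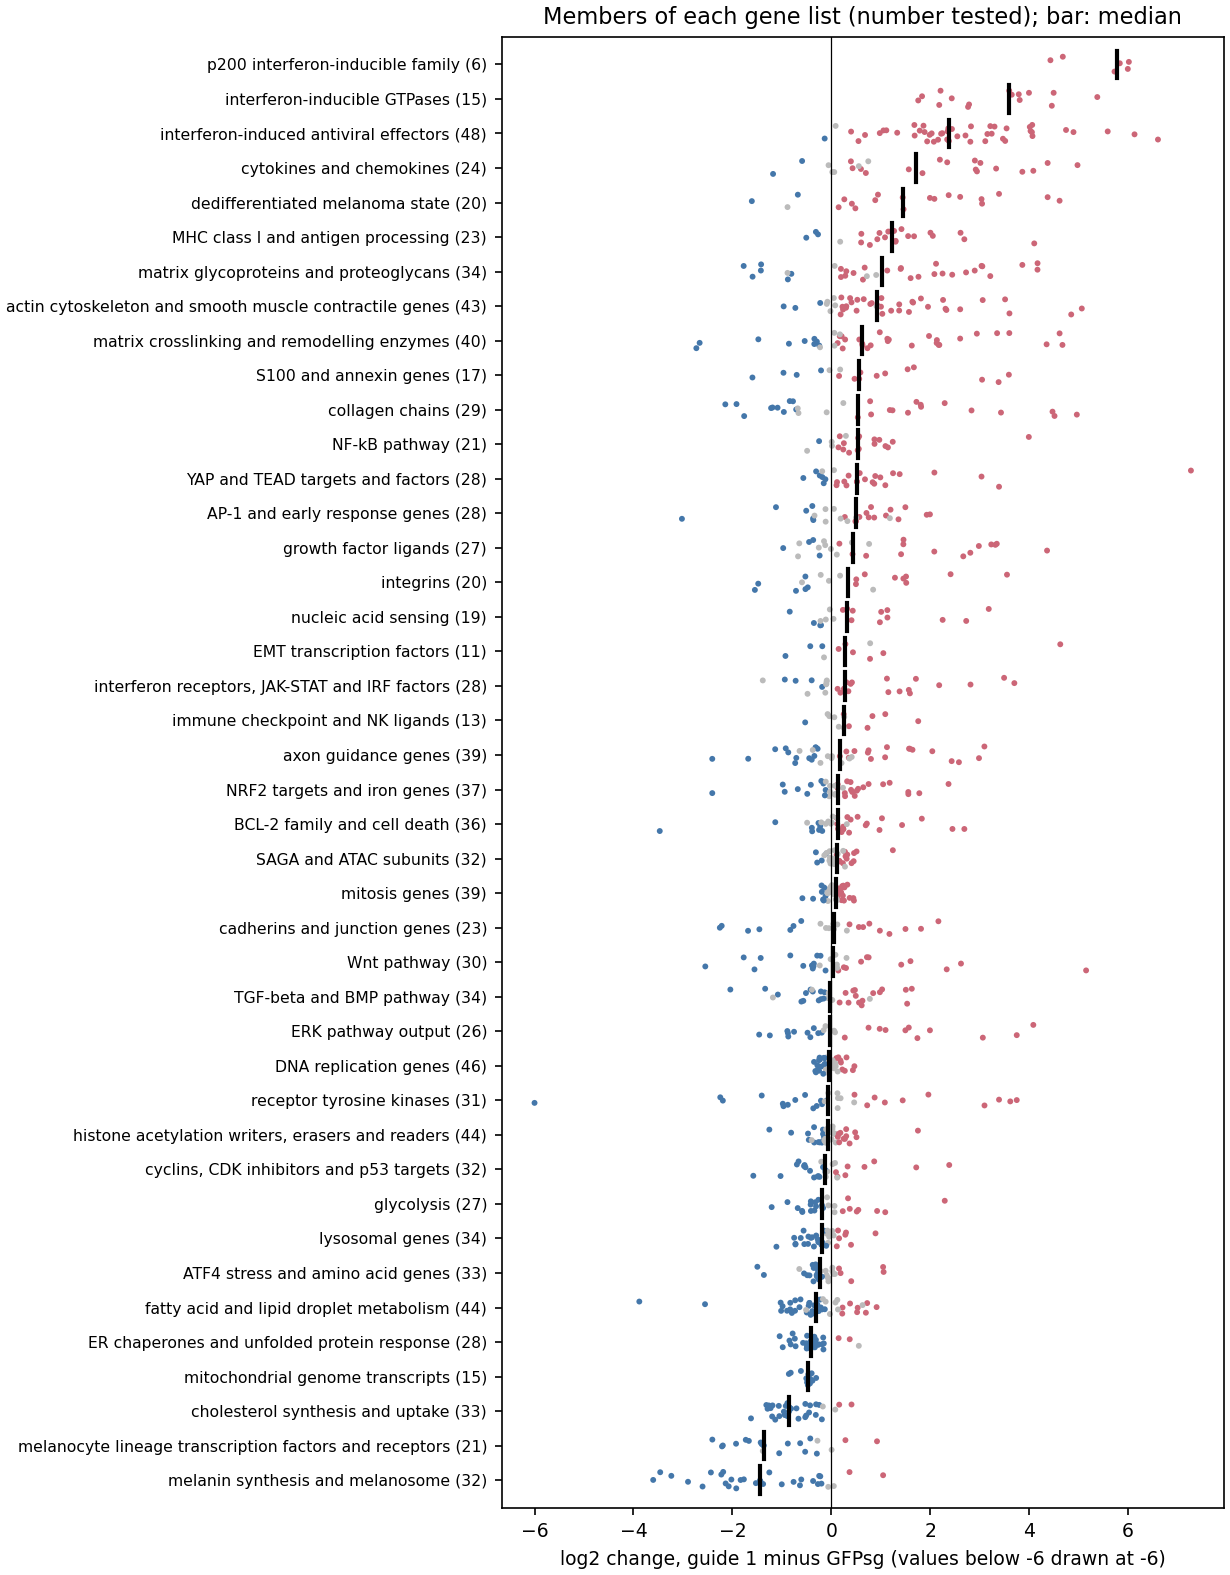
Log2 change (guide 1 minus GFPsg) of every tested member of each gene list (points: red called higher, blue called lower, grey not called), ordered by the list's median (bar), with the number tested in parentheses. The 3 interferon lists have the highest medians and the 2 pigment lists the lowest, while DNA replication and mitosis genes lie close to 0. Ntrk3, at 0 reads with guide 1, has a fitted value under -6, which is no bound, and is drawn at the edge, at -6.

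Some genes were read in 1 group and hardly in the other. A gene with fewer than 10 reads in every library of 1 group enters the test only through the other group, so its direction is fixed by the filter and its reads are given as a description. Among called genes under 10 reads in every GFPsg library, the highest with guide 1 were Wnt11, Adtrp, Zbp1, Syt13 and the predicted gene Gm6133. Zbp1, an interferon-induced sensor of left-handed nucleic acid, had 2, 6 and 5 reads in GFPsg and 251, 209 and 237 in guide 1 libraries. Syt13, of the synaptotagmin family, had 2, 1 and 4 and 183, 214 and 201, and Adtrp 8, 7 and 4 and 225, 271 and 296 reads. None of these 3 had over 8 reads in a GFPsg library, and none had under 183 in a guide 1 library. Among called genes under 10 reads in every guide 1 library, the highest with GFPsg were Gm10619, CT030642.2, Gm44220, Cyp3a41a and Gm10067, of which Gm10619 had 70, 75 and 70 and 9, 3 and 3 reads and the cytochrome P450 gene Cyp3a41a 55, 39 and 46 and 7, 0 and 6 reads.

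Markers of other cell types were checked beside the matrix, contractile and immune rises. Of 12 leukocyte markers, 8 had at most 10 reads in every library, and Ptprc, Itgam, Adgre1 and Tyrobp were among those with none. The list summed to 260 to 293 reads with GFPsg and 546 to 574 with guide 1, nearly all from Cd68, Lyz2, Cx3cr1 and Fcer1g, of which the first 3 rose and Fcer1g fell, from 56 to 74 reads to 24 to 35. The 10 fibroblast markers summed to 3786 to 4191 and 19784 to 22029 reads, with Col1a1 from 484 to 530 and from 16378 to 18265. Pdpn, the most abundant of them with GFPsg, fell from 2777 to 2894 reads to 1553 to 1910, while Dcn, Lum and Thy1 had at most 5 reads in any library. Muscle markers summed to 133 to 168 and 720 to 858 reads, with Myod1 at 0, and with Tnnt2 from 52 to 62 and from 498 to 580. Endothelial markers summed to 382 to 459 and 454 to 502 reads, with Vwf at 64 to 109 and 15 to 23 and Egfl7 at 307 to 354 and 425 to 469. The epithelial markers summed to 78 to 88 and 47 to 56 with Epcam at 0. Schwann and glial markers, several of which melanocytes share, summed to 4521 to 4883 and 1873 to 2063 reads, while Prx rose, from 53 to 71 reads to 257 to 304. The part of other cells in the matrix, contractile and immune changes was not tested.

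Genes named by rule were also set against the second guide, guide 2 (Tada2bsg2), in 1 fit of all 9 libraries. Over all genes, 3.68% were called different between guide 2 and guide 1. Of the 257 genes named by rule, 106 were called. Of 153 that were higher with guide 1 than with GFPsg, 48 were lower with guide 2 than with guide 1 and 0 higher, and of 104 that were lower, 58 were higher with guide 2 and 0 lower. These genes were picked for their values in the guide 1 libraries, which enter both comparisons and favour that direction, so the count is a description. Ankrd1 averaged 25.5 CPM with guide 1 and 18.2 CPM with guide 2, against 0.164 CPM with GFPsg. Tyr averaged 92.3, 146 and 692 CPM, and Ifi204 29.8, 18.9 and 0.463 CPM. Col1a1 was not called between the guides (edgeR adjusted p = 0.087), at 225 and 202 CPM. Tada2b averaged 32.8 CPM with guide 1 and 26.95 CPM with guide 2 (edgeR adjusted p = 0.0067), against 26.6 CPM with GFPsg.

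Some named genes share exon bases with another annotated gene, so their reads may be counted for either or dropped. Of 298 genes checked, 27 shared at least 10% of their exon bases. On the same strand, Ifitm2 shared 40.9% with Gm45717, Ctsd 34.4% with Gm49369, Spp1 18.8% with Gm42793, Rtp4 13.9% with Gm45338 and Gbp7 11.3% with Gm43802. Of these partners Gm45338 was tested and went from 3.47 to 9.32 CPM. On the opposite strand the largest shares were those of Phlda1 (33.0% with Gm28592), Kif20a (29.3% with Cdc23), Pdgfa (26.1% with 6330403L08Rik), Tapbp (24.9% with Gm19412), Ccn2 (23.2% with Gm15270) and Dusp5 (22.1% with AC137853.2).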

How the data were processed

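The deposited table holds raw read counts per Ensembl gene, 1 column per library, with no normalization by the authors, as its whole-number values show. Per the labels' protocols, RNeasy Plus Mini columns gave the RNA and KAPA Stranded mRNA-Seq reagents the libraries. The tools bcl2fastq, HISAT2 and HTSeq and the mm10 build are named per the submitters' processing notes. Versions, annotation, strand setting and read filters are not given in the sources used here. Of 54752 identifiers, 54723 matched GENCODE M21.

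The 6 libraries were fitted with edgeR 4.0.16 in R 4.3.3: filterByExpr with a count minimum of 10 (17383 genes, 99.96% of reads), TMM scaling, the quasi-likelihood F test and Benjamini-Hochberg adjustment over all genes tested. CPM are TMM-scaled. The common coefficient of variation was 0.0498. The test was checked on simulated data with far fewer changed genes and with that common coefficient for every gene. That check does not cover a comparison with as many calls as this one. Alternatives changed the scaling, the filter, the tool or the libraries. No replicate pair agreed within sampling noise (chi-square per degree of freedom 7.12 to 22.7).

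Members and lists were chosen with earlier results of these data known. Genes were named by rule: Tada2b, the 15 largest rises and falls among called genes of at least 5 CPM without predicted genes and pseudogenes, the 8 largest gains and losses in CPM, 5 genes per list with the lowest p, and 5 genes each among those under 10 reads in every library of a group. Genes named beyond the rule were chosen after their values were seen: Ntrk3, Hpse, Col15a1, Aldh1a3, Fbln5, Il33, Myc, Fasn, Mylk, Ifngr2, Cd44, Mif, Calr, Hspa5, Cdkn1a, Ifnar1, Pax3, Mki67, Tada2a, Wwtr1, Ifitm2, Yap1, Irf3, Tmem173, Mavs, Ifit2, Kat2a, Mrtfa, Cd274, Jun, Srf, Itgb1, Fos, B2m, H2-K1, Egr1, Ccl5, Bst2, Il6, Canx, Pdia3, Tpcn2, Ifngr1, Tead1, Tead2, Tead3, Tead4, Grpel1 and the overlapping genes beside them. A few genes that the rule names are not reported here.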

Additional observations from a re-analysis of the deposited data

Results flagged for a closer look

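In 3 of the genes named by rule, guide 2 and guide 1 were called different in the fit of all 9 libraries, with an estimated difference of at least 2-fold. The test was against no difference, so it does not show that the difference exceeds 2-fold. Cck was higher with guide 2 than with guide 1 by 1.83 ± 0.20 on the log2 scale (edgeR adjusted p = 1.9e-05), with means of 0.928 and 0.259 CPM against 12.1 CPM in GFPsg libraries. For Oca2 the difference was 1.11 ± 0.11, with means of 4.54 and 2.10 CPM. For Abca12 it was 1.03 ± 0.06, with means of 9.73 and 4.76 CPM. All 3 genes were among the 15 largest falls with guide 1, for which they were chosen.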

How the results depend on the processing

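The count of called genes, 8740, ran from 8061 (count minimum of 50) to 9168 (replicate block) over the other scalings, filters and tools but the test against 2-fold, including 8477 with the DESeq2 Wald test and 8761 with limma and voom, and from 7806 to 8941 with 1 library left out. Genes called and at least 2-fold lower numbered 561 with a count minimum of 50, where fewer genes were tested. When the test itself required 2-fold (glmTreat), 794 genes were higher and 452 lower. Tada2b kept its direction and call in every setting, between 0.27 and 0.38 on the log2 scale. The replicate numbers did not pair the libraries: the correlation of deviations between same-numbered libraries was 0.046, 0.031 and 0.0042. A fit with the replicate number as a block called 9168 genes and lost no call of a named gene. Among named genes, 2 that were not called changed sign: Tmem173 to 0.044 under library size scaling, and Grhl2, an epithelial marker of few reads, which ran from -0.35 to 0.16 with 1 library left out (-0.15 with all 6) and was above 0 without GFPsg replicate 2. Some markers of other cell types lost their call: Krt7 with the DESeq2 Wald test and without GFPsg replicate 1 or 3 or guide 1 replicate 2, Acta1 without GFPsg replicate 1 or 3 and Egfl7 without GFPsg replicate 3. Depth limits genes of few reads: below 0.5 CPM, 22.02% of 3311 tested genes were called.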
